A study of Mus musculus with 4 samples.

Results

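The genes of pyruvate oxidation and the tricarboxylic acid (TCA) cycle were examined in brown adipose tissue (BAT) of mice with and without deletion of the transcription factor gene Sox4. The 36 genes were listed by name, with earlier results of these data known. They run from the mitochondrial pyruvate carrier through the pyruvate dehydrogenase complex and its regulators to the enzymes of the cycle and the aspartate aminotransferases. All 36 were found among the 55387 rows of the deposited expression values, and all 36 passed the limit for testing, a mean FPKM over 1 in either genotype. FPKM counts fragments relative to transcript length and to the size of the library, so levels of different genes can be compared per length.

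RNA sequencing was done on whole BAT of 4 male mice aged 15 weeks, 1 library per mouse. Both groups carried Sox4 alleles flanked by loxP sites, on a C57BL/6 background. The 2 Sox4f/f mice, whose genotype the sample labels give as wild type, were control littermates. The 2 Sox4-MKO mice also carried Cre recombinase driven by Myf5, which is active in the progenitors that brown adipocytes share with skeletal muscle, so the deletion was not limited to brown fat. The deletion could not be read from these libraries. Sox4 (chr13:28948919-28953713, minus strand) was at 1.98 and 1.06 FPKM in the Sox4f/f mice and at 0.981 and 3.06 FPKM in the mice labelled Sox4-MKO, a log2 fold change of 0.20 (SE 0.43, limma with Benjamini-Hochberg adjusted p = 0.843). The names Sox4f/f and Sox4-MKO below are therefore those of the labels. By western blot, the study reported much less SOX4 protein in BAT of younger Sox4-MKO mice. Values are given throughout for mouse 1 and then mouse 2 of each genotype.

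Pyruvate made from glucose enters the mitochondrion through a carrier and is either oxidised to acetyl-CoA by the pyruvate dehydrogenase complex or carboxylated to oxaloacetate. The cycle condenses both products to citrate and oxidises it stepwise back to oxaloacetate, which supplies NADH and succinate electrons to the respiratory chain. Brown fat holds many mitochondria and burns fatty acids and glucose for heat, and in it the acetyl-CoA from both fuels meets in this cycle.

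Other cell types and depth differed between the libraries. The summed FPKM of 11 skeletal muscle markers was 210 and 776 in the Sox4f/f mice and 15074 and 2624 in the Sox4-MKO mice, and each of the 11 was highest in Sox4-MKO mouse 1. The 6 brown adipocyte markers, with Ucp1 and Cidea among them, summed to 4894 and 4840 FPKM in Sox4f/f mice and to 2531 and 2806 FPKM in Sox4-MKO mice. White adipocyte markers summed to 212 and 163 against 511 and 596 FPKM, and macrophage markers to 118 and 188 against 240 and 255 FPKM. Most of the white sum was Retn, at 137 and 111 against 425 and 510 FPKM. Nnat among the white markers and Elovl3 among the brown ones overlapped between the genotypes. The sums for endothelium, red cell and B cell markers overlapped between the genotypes, those of Schwann cells were 39.7 and 18.0 against 62.6 and 45.9 FPKM, and B cell markers were near 0, at 0.0983 to 1.45 FPKM. Depth, estimated from the smallest steps in the values, was 12100000 to 16300000 fragments per library. In whole tissue, fewer cells of a type and less RNA per cell cannot be told apart, and the part of these markers in the results below was not tested.

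Of the 36 genes, 14 fell and 4 rose in Sox4-MKO BAT and 18 did not pass the test. Here rose and fell mean an unadjusted two-sided p under 0.05 in limma on log2(FPKM + 1), the limit used in the study. Among all 12877 genes tested, 8.28% were lower and 7.95% were higher by the same rule (1066 and 1024 genes), 16.2% in all. No gene passed after Benjamini-Hochberg adjustment over all genes in limma, where the smallest adjusted p was 0.191, and the adjusted p of the 36 genes ran from 0.196 to 0.988. The median log2 fold change of the 36 genes was -0.25, against -0.05 over all genes tested. Under quantile normalization these medians were -0.16 and -0.08. The 36 genes were mostly abundant, with 25 above the 95th percentile of mean FPKM among tested genes. Their median SE was 0.14, against 0.20 over all genes tested, and the part of abundance in these counts was not tested. Both Sox4-MKO libraries were below both Sox4f/f libraries for 21 of the 36 genes and above them for 6, where 29.6% and 21.7% of all tested genes were so placed, 51.3% in all. An exact permutation test of 2 against 2 mice cannot give a two-sided p below 0.333 for any single gene.

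Most of the genes that fell encode enzymes of the cycle itself. The 15 genes Cs, Idh3a, Idh3b, Idh3g, Ogdh, Dlst, Sucla2, Suclg1, Suclg2, Sdha, Sdhb, Sdhc, Sdhd, Fh1 and Mdh2 encode mitochondrial subunits of the cycle and were grouped after their values were seen, without Dld, which is counted with pyruvate dehydrogenase, and without the NADP+-dependent Idh2. All 15 had a negative log2 fold change, with a median of -0.50, and 12 fell. The other genes that fell were Idh2 and Pdk4. The sum of brown adipocyte markers was likewise lower in both Sox4-MKO mice, at 2531 and 2806 FPKM against 4894 and 4840 FPKM, and its part in these changes was not tested. Of the 7 genes of pyruvate import and the pyruvate dehydrogenase complex, 0 passed the test, with log2 fold changes between -0.21 and 0.32, and the difference between the 2 groups was not tested. The 4 genes that rose were Pcx, Idh1, Got1 and Got2. The summed FPKM of the 15 cycle genes was 3.81 and 3.35 times that of the 7 entry genes in Sox4f/f mice. In Sox4-MKO mice it was 2.17 and 2.58 times. This ratio within each library does not depend on library scaling. As the 15 genes were grouped after their values were seen, their shared direction and this ratio describe the grouping and do not test it.

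**Figure D1:**
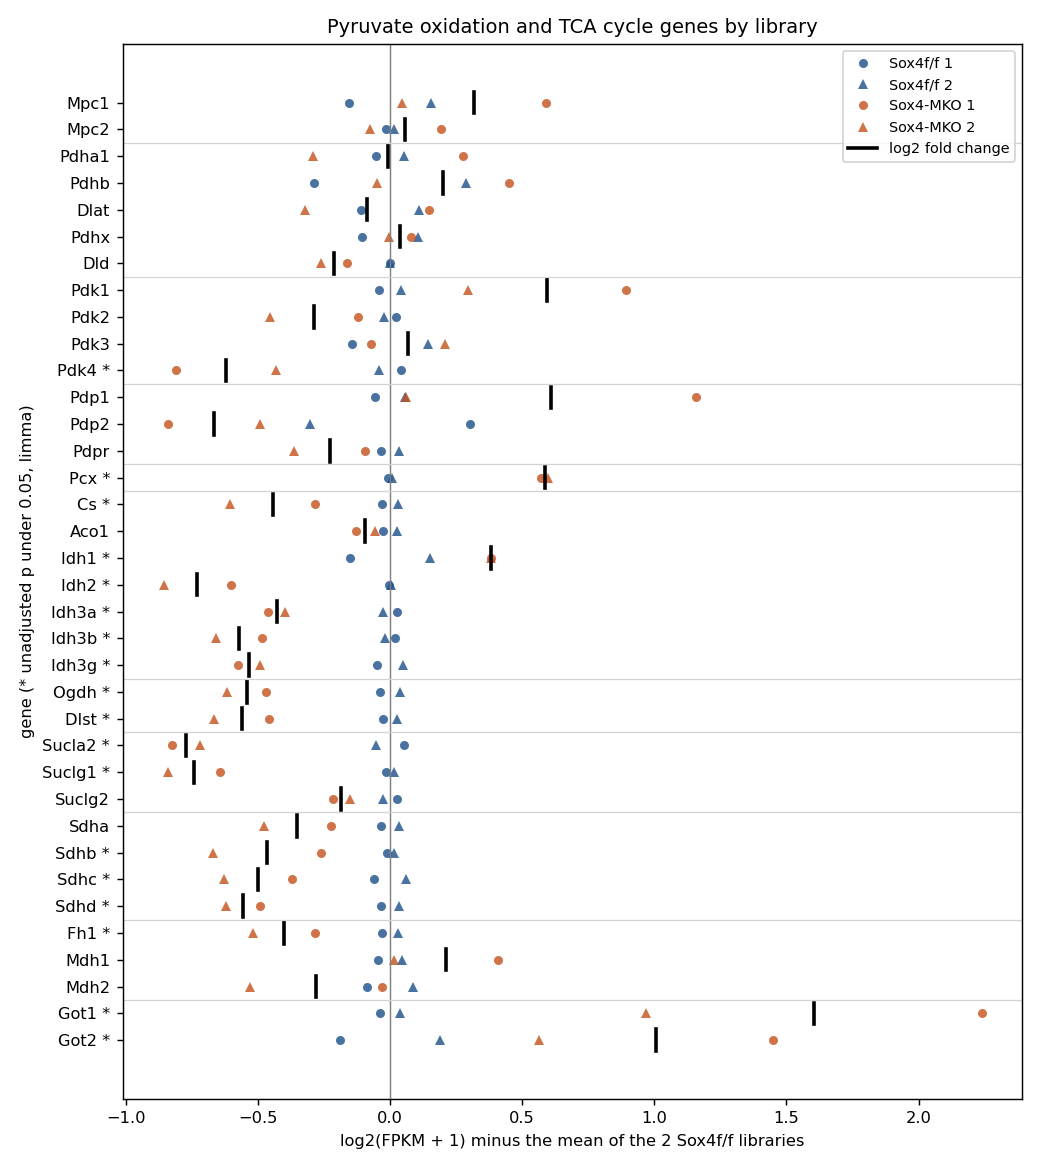
Each row is 1 of the 36 genes, in the order of their roles, and each point is 1 library on the log2(FPKM + 1) scale minus the mean of the 2 Sox4f/f libraries; black bars are the log2 fold changes and stars mark an unadjusted p under 0.05 (limma). Cycle genes from Idh2 to Fh1 lie left of 0 in both Sox4-MKO libraries, whereas the pyruvate dehydrogenase genes Pdha1, Pdhb and Dlat have 1 Sox4-MKO library above and 1 below the mean of Sox4f/f.

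**Figure D2:**
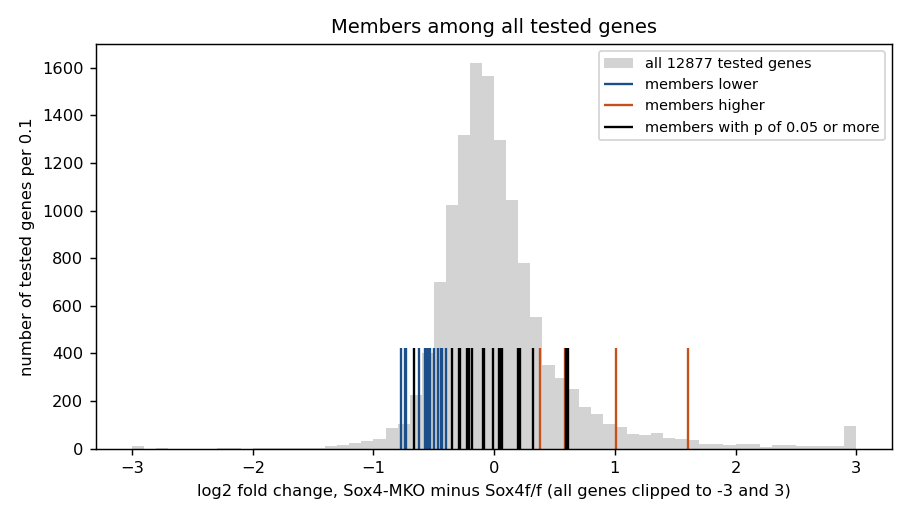
Grey bars count all 12877 tested genes by log2 fold change, clipped to between -3 and 3, and vertical lines mark the 36 genes. The 14 lower lines lie between -0.77 and -0.40 and the 4 higher ones between 0.38 and 1.60.

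To set sequence beside these directions, the 250 bases before each RefSeq start site (GRCm38.p6) were searched on both strands. Windows were at hand for 33 of the 36 genes, 43 windows in all. The SOX motif AACAAAG was in 1 of the 43 windows, that of Idh3b, and in 5.03% of the windows of all genes. The nuclear receptor half-site AGGTCA was in 14.0% of the windows of these genes and of all genes, before Fh1, Got1, Got2, Mpc1, Sdhb and Sucla2. The longer estrogen-related receptor motif TNAAGGTCA, which holds the half-site, was in 0 of the 43 windows and in 1.14% of all windows. The ETS motif CCGGAAGT was likewise in 0 of the 43 and in 2.88% of all. The GC box GGGCGG was in 25 of the 43 windows (58.1%) and in 32.7% of all, and GC content averaged 60.5% and 53.2%. These are matches of letters, and binding was not measured here. Shown are the 1 window with SOX letters, a half-site before a gene that fell and one before a gene that rose, and the windows of both start sites of Pcx. Bases within an annotated exon were left out and capitals mark the motif named.
Idh3b, chr2:130284548-130284701, minus strand, AACAAAG in capitals: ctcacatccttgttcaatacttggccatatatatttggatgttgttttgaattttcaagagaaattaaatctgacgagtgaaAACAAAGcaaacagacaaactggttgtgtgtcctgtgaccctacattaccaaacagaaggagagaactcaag
Sdhb, chr4:140961021-140961202, plus strand, AGGTCA in capitals: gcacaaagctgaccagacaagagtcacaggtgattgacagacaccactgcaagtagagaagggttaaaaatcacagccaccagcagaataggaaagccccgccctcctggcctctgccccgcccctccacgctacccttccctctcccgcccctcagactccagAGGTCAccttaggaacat
Got1, chr19:43524606-43524855, minus strand, AGGTCA in capitals: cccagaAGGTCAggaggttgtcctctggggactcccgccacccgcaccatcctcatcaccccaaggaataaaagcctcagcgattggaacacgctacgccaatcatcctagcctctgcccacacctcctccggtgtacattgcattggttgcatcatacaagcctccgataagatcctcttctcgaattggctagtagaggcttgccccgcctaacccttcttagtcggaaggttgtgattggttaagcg
Pcx first start, chr19:4510222-4510471, plus strand, GGGCGG in capitals: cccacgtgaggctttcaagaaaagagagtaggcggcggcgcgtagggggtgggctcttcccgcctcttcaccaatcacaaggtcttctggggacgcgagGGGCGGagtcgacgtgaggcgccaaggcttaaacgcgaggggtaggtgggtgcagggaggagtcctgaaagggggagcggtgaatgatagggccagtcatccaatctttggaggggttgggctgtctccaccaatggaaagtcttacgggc
Pcx second start, chr19:4594069-4594318, plus strand, no GGGCGG on this strand or the other: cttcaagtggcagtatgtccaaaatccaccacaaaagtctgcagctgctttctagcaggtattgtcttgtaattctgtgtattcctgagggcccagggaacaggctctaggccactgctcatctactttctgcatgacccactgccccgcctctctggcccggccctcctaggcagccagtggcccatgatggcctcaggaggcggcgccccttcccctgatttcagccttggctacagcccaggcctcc

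Pyruvate import and the pyruvate dehydrogenase complex were examined first. Mpc1 and Mpc2 together form the carrier of the inner membrane. Mpc1 was at 419 and 520 FPKM in Sox4f/f mice and at 704 and 482 FPKM in Sox4-MKO mice. Mpc2 was at 395 and 403 against 456 and 378 FPKM. Their log2 fold changes were 0.32 (SE 0.23) and 0.06 (SE 0.14), and the genotypes overlapped for both. Pdha1 and Pdhb encode the decarboxylase of the complex. Pdha1 was at 511 and 551 FPKM in Sox4f/f mice and at 642 and 433 FPKM in Sox4-MKO mice, so that Sox4-MKO mouse 1 was the highest and mouse 2 the lowest of the 4. Its log2 fold change was -0.01 with an SE of 0.22. Pdhb was at 364 and 544 against 608 and 430 FPKM (log2 fold change 0.20, SE 0.27), and the genotypes overlapped.

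Dlat, the acetyltransferase core, was at 159 and 185 FPKM in Sox4f/f mice and at 190 and 137 FPKM in Sox4-MKO mice. Pdhx, which holds the dihydrolipoamide dehydrogenase in the complex, was at 44.1 and 51.1 against 50.2 and 47.3 FPKM. Their log2 fold changes of -0.09 (SE 0.20) and 0.04 (SE 0.13) were smaller than their errors. Dld, the dehydrogenase shared with the oxoglutarate complex, was at 309 and 309 FPKM in Sox4f/f mice and at 276 and 258 FPKM in Sox4-MKO mice. It was the one gene of the 7 whose genotypes did not overlap, with a log2 fold change of -0.21 (SE 0.11) that did not pass the test (adjusted p = 0.407). All 7 were higher in Sox4-MKO mouse 1 than in mouse 2, as were 27 of the 36 genes and 61.3% of all tested genes. Mouse 1 had the higher muscle marker sum, and the part of muscle in this order was not tested.

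Pyruvate dehydrogenase is switched off by 4 kinases and on again by phosphatases. Pdk4, the kinase induced when tissues burn fat, was the most abundant kinase in all 4 libraries and fell. It was at 744 and 701 FPKM in Sox4f/f mice and at 412 and 536 FPKM in Sox4-MKO mice. The mean fell by 34.4% (log2 fold change -0.62, SE 0.17, adjusted p = 0.231). The other kinases did not pass the test. Pdk2 was at 154 and 149 against 139 and 110 FPKM, lower in both Sox4-MKO mice (log2 fold change -0.29, SE 0.15). Pdk1, a kinase known as a target of hypoxia signalling, was at 20.3 and 21.6 against 39.8 and 26.0 FPKM, higher in both Sox4-MKO mice (log2 fold change 0.60, SE 0.23, adjusted p = 0.312). Pdk3 was near the limit of testing at 0.745 and 1.13 against 0.834 and 1.23 FPKM, which stand for about 21 to 42 fragments per library. Its log2 fold change was 0.07 with an SE of 0.26, and the genotypes overlapped.

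As shares of the summed FPKM of the 4 kinases, Pdk4 made up 80.9% and 80.3% in Sox4f/f mice and 69.6% and 79.6% in Sox4-MKO mice. Sox4-MKO mouse 2 thus lay near the controls, and mouse 1 held more Pdk1 (6.72%) and Pdk2 (23.5%). The summed level of the kinases was 920 and 873 FPKM in Sox4f/f and 592 and 674 FPKM in Sox4-MKO mice.

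Among the phosphatase genes, Pdp2 was the more abundant catalytic subunit at 34.1 and 22.1 FPKM in Sox4f/f mice and 14.9 and 19.2 FPKM in Sox4-MKO mice. Both Sox4-MKO values lay below both controls, and the log2 fold change of -0.67 (SE 0.26) missed the threshold (adjusted p = 0.313). Pdp1, the calcium-sensitive subunit that is prominent in muscle, was at 3.56 and 3.93 against 9.58 and 3.94 FPKM. The difference lay in Sox4-MKO mouse 1, and the log2 fold change of 0.61 had an SE of 0.40. Its share of the Pdp1 and Pdp2 sum was 9.43% and 15.1% in Sox4f/f mice and 39.1% and 17.0% in Sox4-MKO mice. Pdpr, the regulatory subunit, was at 37.3 and 39.2 against 35.8 and 29.5 FPKM (log2 fold change -0.23, SE 0.14).

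Pyruvate carboxylase, encoded by Pcx (chr19:4510472-4621752, plus strand), makes oxaloacetate from pyruvate and refills the cycle. Pcx rose, from 318 and 322 FPKM in Sox4f/f mice to 476 and 485 FPKM in Sox4-MKO mice. Means were 320 ± 2.63 and 480 ± 6.45 FPKM (SD, n = 2), 50.2% higher. The log2 fold change was 0.59 with an SE of 0.11, the smallest error among the 36 genes (adjusted p = 0.196). The muscle marker sums of these 2 Sox4-MKO libraries were 15074 and 2624 FPKM, and the white adipocyte marker sums were 212 and 163 FPKM in Sox4f/f mice and 511 and 596 FPKM in Sox4-MKO mice. Their part in the change of Pcx was not tested. Within each library, Pcx stood at 0.394 and 0.382 times the level of Cs in Sox4f/f mice and at 0.703 and 0.895 times in Sox4-MKO mice. As Pcx rose and Cs fell in these libraries without overlap, this ratio had to differ and is no separate result.

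Citrate synthase, encoded by Cs, opens the cycle and had the highest mean FPKM of the 36 genes over all 4 libraries, while Sucla2 had the higher mean in the Sox4f/f mice. It fell, from 807 and 842 FPKM in Sox4f/f mice to 677 and 542 FPKM in Sox4-MKO mice (log2 fold change -0.44, SE 0.15, adjusted p = 0.277). In the same libraries the ratio of Cs to Pdha1 was 1.58 and 1.53 against 1.06 and 1.25. Aco1, the cytosolic aconitase, was at 74.0 and 76.8 against 68.8 and 72.4 FPKM and did not pass (log2 fold change -0.09, SE 0.11).

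The isocitrate dehydrogenases moved in opposite directions. Idh3a, Idh3b and Idh3g encode the subunits of the NAD+-dependent enzyme of the cycle, and all 3 fell. Idh3a was at 681 and 656 FPKM in Sox4f/f mice and at 486 and 507 FPKM in Sox4-MKO mice. Idh3b was at 693 and 676 against 489 and 433 FPKM, and Idh3g at 516 and 552 against 357 and 379 FPKM. The log2 fold changes were -0.43, -0.57 and -0.53, with SEs of 0.11 to 0.12 and adjusted p = 0.228, adjusted p = 0.212 and adjusted p = 0.212.

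Idh2 (chr7:80094846-80115392, minus strand), the NADP+-dependent enzyme of mitochondria, fell from 254 and 256 FPKM to 167 and 140 FPKM. Its mean fell by 39.6%, from 255 ± 1.36 to 154 ± 19.2 FPKM (SD, n = 2), and the log2 fold change was -0.73 (SE 0.13, adjusted p = 0.196). Idh1, its cytosolic counterpart that supplies NADPH outside mitochondria, rose from 82.2 and 102 FPKM to 119.5 and 119.3 FPKM (log2 fold change 0.38, SE 0.14, adjusted p = 0.306). Idh1 made up 24.5% and 28.4% of the sum of both genes in Sox4f/f mice and 41.6% and 46.0% in Sox4-MKO mice. As Idh1 was higher and Idh2 lower without overlap, this share could not overlap and is no separate result. Idh1 kept its call in only 4 of 11 alternatives. It no longer passed without Sox4f/f mouse 1 (log2 fold change 0.23), Sox4-MKO mouse 1 (0.38) or Sox4-MKO mouse 2 (0.38), with libraries set to a common median (0.36), under quantile normalization (0.41), with the mouse number as a block (0.38), or with only genes averaging over 5 FPKM (0.38).

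**Figure D3:**
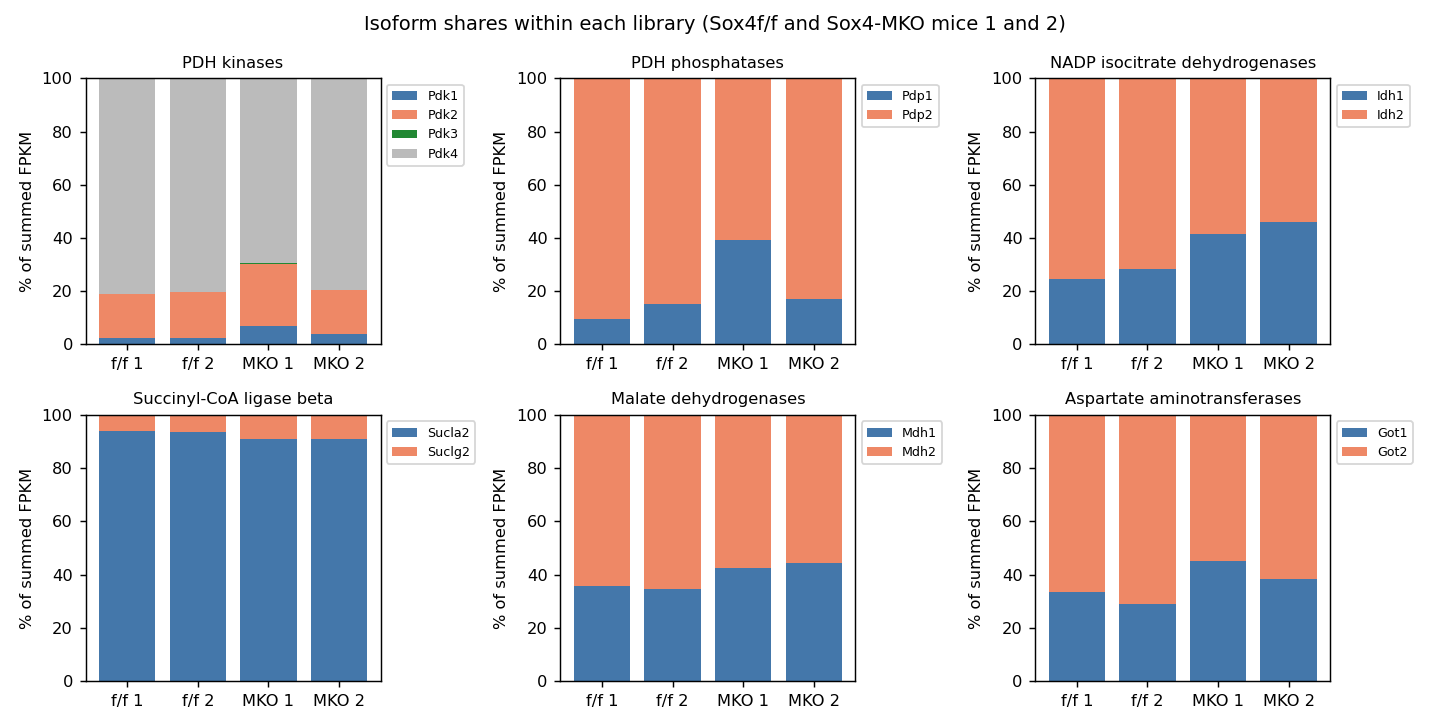
Stacked bars give, for 6 families and each of the 4 libraries, the share of each gene in the family's summed FPKM (percent, axis from 0 to 100). The Idh1, Suclg2, Mdh1 and Got1 shares are higher in both Sox4-MKO libraries than in both Sox4f/f libraries, and the kinase and phosphatase shares stand apart mainly in Sox4-MKO mouse 1.

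Of the 5 genes for the steps from oxoglutarate to succinate, 4 fell, where 8.28% of all tested genes were lower. The median log2 fold change of the 5 was -0.56. Ogdh and Dlst encode the decarboxylase and the succinyltransferase of the oxoglutarate dehydrogenase complex, and both fell. Ogdh was at 567 and 598 FPKM in Sox4f/f mice and at 420 and 380 FPKM in Sox4-MKO mice (log2 fold change -0.54, SE 0.12, adjusted p = 0.214). Dlst was at 436 and 452 against 323 and 280 FPKM (log2 fold change -0.56, SE 0.13, adjusted p = 0.214). Dld, which the oxoglutarate complex shares with pyruvate dehydrogenase, did not pass the test.

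Succinyl-CoA ligase makes succinate and a nucleoside triphosphate. Its ADP-forming beta subunit Sucla2 (chr14:73525319-73596142, plus strand) had the most negative log2 fold change of the 36 genes, -0.77 (SE 0.12, adjusted p = 0.196). It was at 874 and 812 FPKM in Sox4f/f mice and at 475 and 512 FPKM in Sox4-MKO mice, with means of 843 ± 43.6 and 494 ± 26.2 FPKM (SD, n = 2). The mean fell by 41.5%. The alpha subunit Suclg1 (chr6:73248382-73276911, plus strand), which both forms of the enzyme need, fell from 671 and 683 to 433 and 377 FPKM (log2 fold change -0.74, SE 0.13, adjusted p = 0.196). Suclg2, the GDP-forming beta subunit, was far less abundant, at 56.6 and 54.4 against 47.6 and 49.8 FPKM. Its log2 fold change of -0.18 (SE 0.11) did not pass the test. Suclg2 made up 6.08% and 6.28% of the beta subunit sum in Sox4f/f mice and 9.11% and 8.87% in Sox4-MKO mice.

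Complex II oxidises succinate and passes its electrons to ubiquinone, which ties the cycle to the respiratory chain. Of its 4 subunits, 3 fell, where 8.28% of all tested genes were lower. Sdha, the flavoprotein, was at 652 and 684 FPKM in Sox4f/f mice and at 572 and 479 FPKM in Sox4-MKO mice, and missed the threshold (log2 fold change -0.35, SE 0.14, adjusted p = 0.318). Sdhb, the iron-sulfur subunit, fell from 680 and 693 to 573 and 431 FPKM (log2 fold change -0.47, SE 0.17). The membrane anchors also fell, Sdhc from 362 and 394 to 292 and 244 FPKM and Sdhd from 603 and 634 to 440 and 401 FPKM. The log2 fold change of Sdhc was -0.50 (SE 0.14) and that of Sdhd -0.56 (SE 0.12). The adjusted p-values of Sdhb, Sdhc and Sdhd were 0.302, 0.239 and 0.211. All 4 were lower in both Sox4-MKO libraries than in both controls, where 29.6% of all tested genes were so placed. Within libraries, the ratio of Sdhd to Sdha was 0.925 and 0.927 in Sox4f/f mice and 0.769 and 0.837 in Sox4-MKO mice.

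At the end of the cycle, Fh1, the fumarase, fell from 211 and 221 to 177 and 151 FPKM (log2 fold change -0.40, SE 0.13, adjusted p = 0.266). Mdh2, the mitochondrial malate dehydrogenase, was at 568 and 642 FPKM in Sox4f/f mice and at 592 and 418 FPKM in Sox4-MKO mice (log2 fold change -0.28, SE 0.21). It was the 1 gene of the 15 whose genotypes overlapped, where 51.3% of all tested genes did not overlap. Mdh1, the cytosolic enzyme, was at 318 and 338 against 436 and 331 FPKM (log2 fold change 0.21, SE 0.17), also with overlap. As a share of the Mdh1 and Mdh2 sum, Mdh1 was at 35.9% and 34.5% in Sox4f/f mice and at 42.4% and 44.2% in Sox4-MKO mice, without overlap.

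The aspartate aminotransferases exchange oxaloacetate and glutamate for aspartate and oxoglutarate, and serve with the malate dehydrogenases in the shuttle that carries reducing equivalents into mitochondria. Both rose. Got1 (chr19:43499752-43524605, minus strand), the cytosolic form, had the highest log2 fold change of the 36 genes, 1.60 (SE 0.44, adjusted p = 0.231). It was at 11.3 and 11.9 FPKM in Sox4f/f mice and at 58.4 and 23.6 FPKM in Sox4-MKO mice. Got2, the mitochondrial form, was at 22.3 and 29.2 against 71.4 and 38.2 FPKM (log2 fold change 1.01, SE 0.34, adjusted p = 0.269). In both, Sox4-MKO mouse 1 was the highest library by a wide margin.

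Got1, Got2, Pdk1, Pdp1 and Idh1 were the 5 genes of the 36 whose libraries ran in the order of the muscle marker sum, from Sox4f/f mouse 1 through Sox4f/f mouse 2 and Sox4-MKO mouse 2 to Sox4-MKO mouse 1. These were 13.9% of the 36, and 8.75% of all tested genes ran in this order. For Idh1 the 2 Sox4-MKO libraries were nearly equal, at 119.48 FPKM in mouse 1 and 119.3 FPKM in mouse 2. Pcx and Sucla2 did not run in this order, and also had their 2 Sox4-MKO libraries close together. For 27 of the 36 genes Sox4-MKO mouse 1 was above mouse 2 (75.0%), as for 61.3% of all tested genes. Without Sox4-MKO mouse 1, with its remaining mouse assumed to vary like the controls, 17 of the 36 genes were lower and 2 were higher, where 7.88% and 7.21% of all genes were. Pdk2, Sdha and Mdh2 were then added to the lower genes with log2 fold changes of -0.46, -0.48 and -0.53, and Got2 (0.56) and Idh1 (0.38) no longer passed. Got1 passed with either Sox4-MKO mouse alone, at a log2 fold change of 0.97 when Sox4-MKO mouse 1 was left out and of 2.24 when mouse 2 was. Without Sox4-MKO mouse 2, 11 were lower and 7 higher, where 6.33% and 11.2% of all genes were, and Cs, Sdhb and Fh1 no longer passed, at log2 fold changes of -0.28, -0.26 and -0.28, nor did Idh1, at 0.38. Mpc1 (0.59), Pdk1 (0.89), Pdp1 (1.16) and Mdh1 (0.41) then passed as higher.

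**Figure D4:**
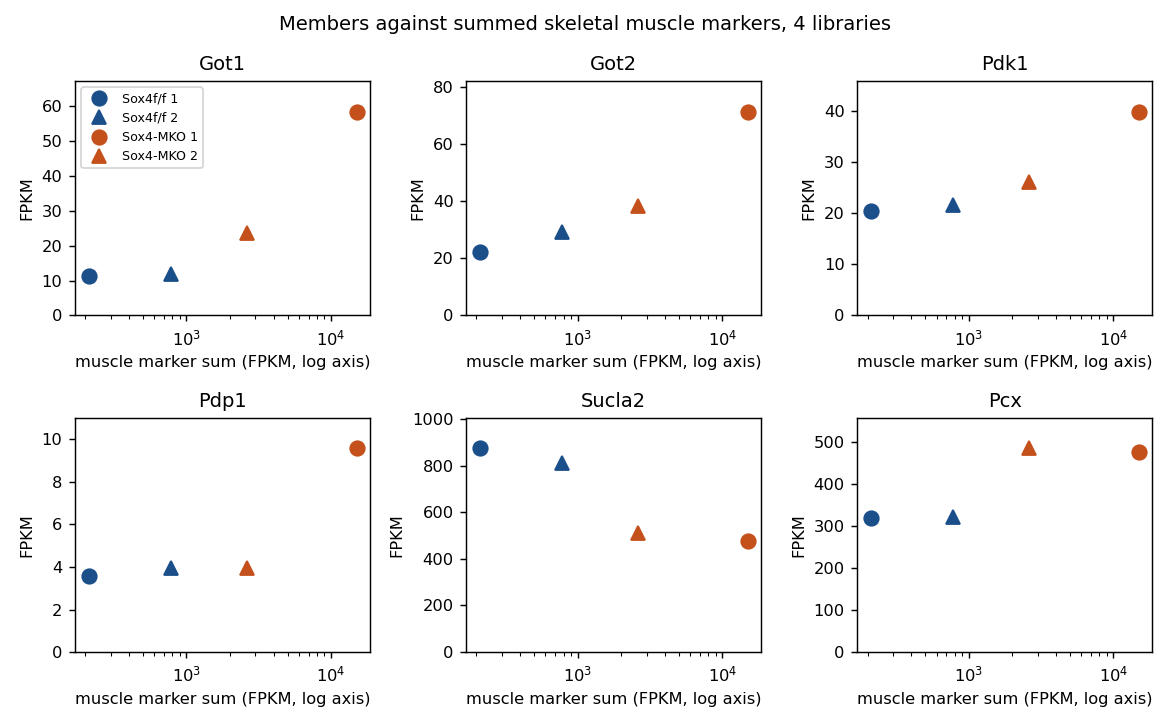
Each panel plots 1 gene in FPKM, from 0, against the summed FPKM of 11 skeletal muscle markers on a log axis, with 1 point per library. Got1, Got2 and Pdk1 are highest in Sox4-MKO mouse 1, which has a marker sum of 15074 FPKM, while Sucla2 and Pcx lie at nearly the same level in both Sox4-MKO mice, whose sums are 15074 and 2624 FPKM.

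Sucla2, Suclg1, Idh2 and Pcx passed the test in every one of the 11 alternatives planned for them, which include leaving out each mouse in turn. Leaving out Sox4f/f mouse 1 left 4 lower genes and 1 higher gene of the 36, where 2.95% and 3.36% of all genes were, and leaving out Sox4f/f mouse 2 left 4 and 2, where 3.8% and 4.46% were. The share of higher genes was then near that of all genes. The lower genes were Idh2, Idh3g, Sucla2 and Suclg1 without mouse 1 and Idh2, Sucla2, Suclg1 and Pdp2 without mouse 2. The genes that no longer passed as lower had log2 fold changes between -0.59 and -0.40 without mouse 1 and between -0.66 and -0.37 without mouse 2, and Got1 was at 1.57 and 1.64 and Got2 at 0.82 and 1.20. Under quantile normalization Pdk4 (-0.43), Cs (-0.20), Idh3a (-0.27), Sdhb (-0.27) and Idh1 (0.41) did not pass, and Cs and Sdhb did not pass when no FPKM limit was set. With library sums set equal without the mitochondrially encoded genes, 14 of the 36 genes were lower and 5 higher, while the split over all tested genes moved to 726 lower (5.64%) and 1328 higher (10.3%).

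Genes of the neighbouring reactions were compared in the same fit. They were listed by function and not by how they moved, though with earlier results of these data known. Of 39 tested, 13 fell and 6 rose, beside 8.28% and 7.95% of all genes, with a median log2 fold change of -0.10. The carriers of cycle intermediates mostly rose, 3 of 4, among them Slc25a10, the dicarboxylate carrier, and Slc25a12, an aspartate-glutamate carrier. The remaining carrier, Slc25a11, went the other way and did not pass the test. It was at 105 and 106 FPKM in Sox4f/f mice and at 98.1 and 70.5 FPKM in Sox4-MKO mice (log2 fold change -0.34, SE 0.19). Slc25a10 was at 44.5 and 36.5 FPKM in Sox4f/f mice and at 137 and 115 FPKM in Sox4-MKO mice (log2 fold change 1.61, SE 0.16, adjusted p = 0.191). Slc25a12 was at 2.28 and 4.30 against 38.9 and 10.7 FPKM (log2 fold change 2.37, SE 0.64, adjusted p = 0.231), in the order of the muscle marker sum.

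At the branch points of pyruvate and acetyl-CoA, 5 of 12 genes fell and 2 rose, beside 8.28% and 7.95% of all genes. Me1, the cytosolic malic enzyme that turns malate into pyruvate and NADPH, rose from 128 and 181 to 510 and 423 FPKM (log2 fold change 1.60, SE 0.21). Acss1, which makes acetyl-CoA from acetate in mitochondria, fell from 85.4 and 67.9 to 35.0 and 38.1 FPKM (log2 fold change -1.04, SE 0.16). Ldhd, the mitochondrial D-lactate dehydrogenase, fell from 78.8 and 81.1 to 42.2 and 48.7 FPKM (log2 fold change -0.80, SE 0.13). The adjusted p-values of Me1, Acss1 and Ldhd were 0.191, 0.196 and 0.196.

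Supply of lipoate and cofactors to the dehydrogenase complexes gave 3 lower genes and 1 higher of 7. Slc25a42, the carrier that brings coenzyme A into mitochondria, fell from 217 and 189 to 106 and 106 FPKM (log2 fold change -0.93, SE 0.12, adjusted p = 0.191). Of the 4 complex II assembly factors Sdhaf1 to Sdhaf4, 0 passed the test, with log2 fold changes between -0.10 and 0.12 and overlap in each. Of the 4 subunits of complex II, 3 passed. Whether assembly factors and subunits differed in their response was not tested. Among 8 genes of anaplerosis and side reactions, 2 fell and 0 rose, and among 4 regulatory genes, 3 fell and 0 rose. Over all tested genes, 8.28% were lower and 7.95% were higher by the same rule.

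**Figure D5:**
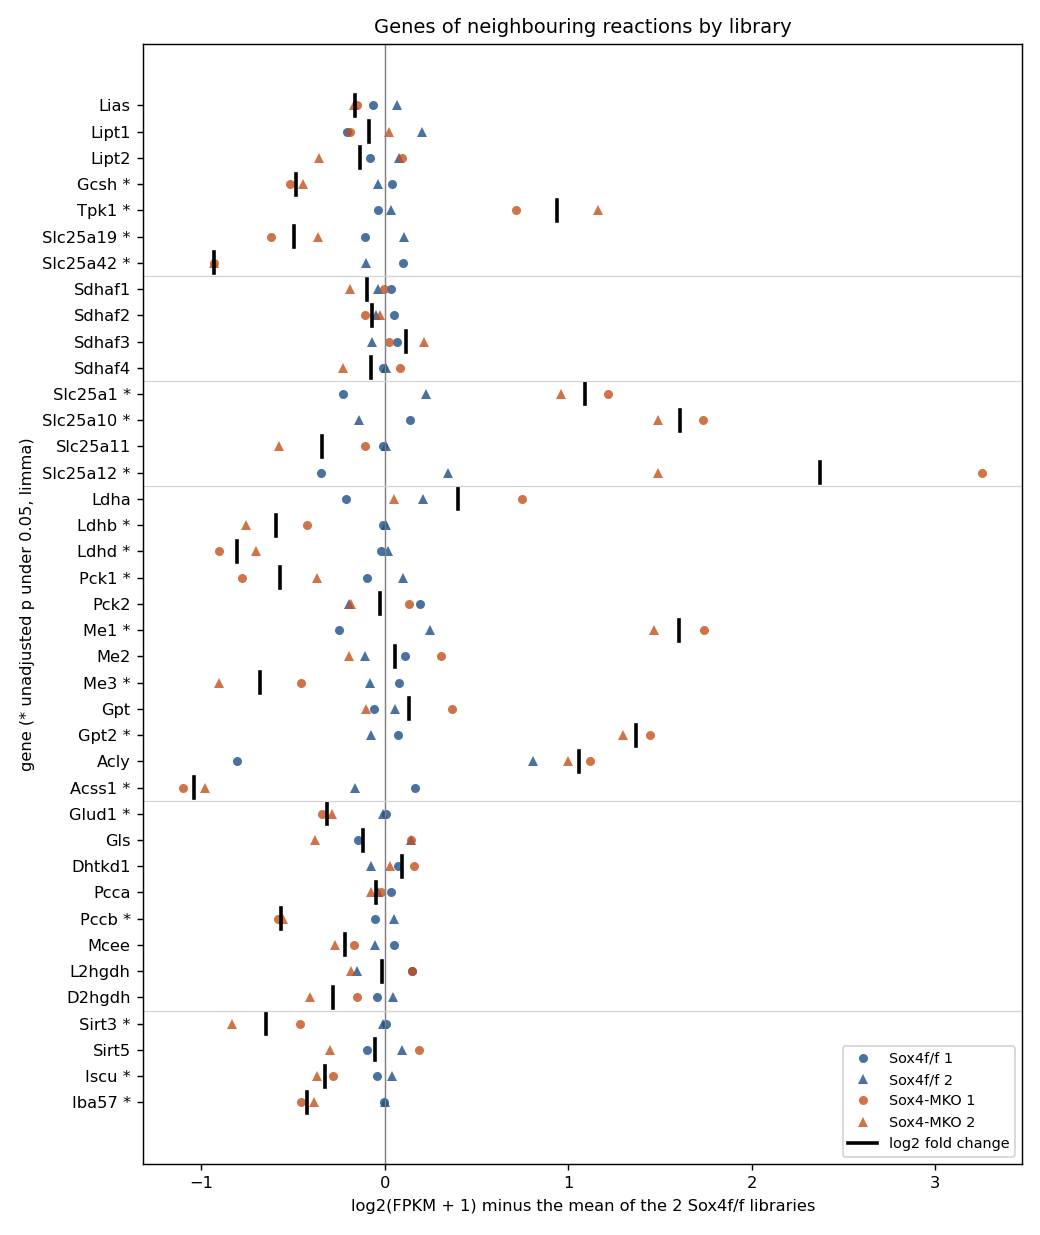
Each row is 1 of 39 tested genes of neighbouring reactions and each point is 1 library, plotted as log2(FPKM + 1) minus the mean of the 2 Sox4f/f libraries; bars are log2 fold changes and stars mark an unadjusted p under 0.05 (limma). Slc25a12 reaches the highest log2 fold change, 2.37, with its 2 Sox4-MKO libraries far apart, while the 2 libraries of Slc25a10 and of Slc25a42 lie close together.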

How the data were processed

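BAT of 4 mice, 2 per genotype, was sequenced as 1 library each. The authors deposited 1 FPKM value per gene and library, and the submitters' processing notes name Cufflinks 2.1.1, Cuffdiff and the mouse build mm10. The aligner and the annotation are not given in the sources used here. The labels name a column kit and a stranded library kit, the study's methods an acid phenol reagent and an unstranded kit. Without a known strand setting, genes that overlap cannot be told apart. Pdk, Idh3 and succinyl-CoA ligase genes are separate loci, and reads shared with pseudogenes were not examined.

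The members, gene lists and tests were chosen with earlier results of these data known. FPKM are not counts, so limma 3.58.1 (R 4.3.3) modelled log2(FPKM + 1) on genotype alone, with a trended prior. Fold changes on this scale understate those of low genes. Genes whose mean FPKM lay over 1 in either genotype were tested, 12877 of 55387 rows, and p-values were adjusted over all of them. Each p-value sets the genotype difference against the spread between mice of the same genotype, drawn toward a trend over all tested genes. It covers these 4 mice only. Values in every library are given for genes under an unadjusted p of 0.05, the isoform families, the pyruvate dehydrogenase and complex II subunits, and genes whose direction turned when 1 library was left out. Of the neighbouring genes, the 3 lowest and 3 highest that passed without overlap are named, and besides them Slc25a11 and the complex II assembly factors. A gene of the neighbouring list is not reported here. Of the other 43 neighbouring genes, 42 were found, 1 on several rows was left out, and 39 were tested. Coordinates are those of GENCODE M21 (mm10) for the same symbol. Depth was estimated from single-transcript genes of at least 1500 bases. The code was tested on simulated data. Alternatives were the replicate block, each mouse left out, other scalings, limits and pseudocounts.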

Additional observations from a re-analysis of the deposited data

How the results depend on the processing

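Sucla2, Suclg1, Idh2 and Pcx, kept direction and p under 0.05 in all 11 alternatives tried on single genes. Of 395 alternative values of the 36 genes, 320 kept their direction and their side of the threshold, whether that was above or below 0.05. Leaving out 1 mouse at a time gave 4 to 17 lower and 1 to 7 higher genes of the 36, 4 to 11 lower and 4 to 7 higher neighbouring genes, 380 to 1015 lower and 433 to 1443 higher genes in all, and a median of the 36 between -0.38 and -0.15. With the mouse number as a replicate block, 11 of the 36 were lower and 2 were higher, Cs, Idh1, Sdhb, Fh1 and Got2 no longer passing. Same-numbered mice deviated with a correlation of -0.0122. With 2 mice per genotype both pairs must give the same value, so whether they share more than a number cannot be told from it. Common sums without mitochondrially encoded genes gave 8 lower neighbouring genes. Pdha1 turned to 0.16 under quantile normalization and 0.067 under common sums, and Pdk3 to -0.14 under quantile normalization. Leaving out single mice, the log2 fold change ran from -0.076 to 0.19 for Mpc2, -0.29 to 0.27 for Pdha1, -0.089 to 0.49 for Pdhb, -0.32 to 0.15 for Dlat, -0.068 to 0.14 for Pdhx and -0.076 to 0.21 for Pdk3, so no direction is given for these 6. Without Sox4f/f replicate 2 and Sox4-MKO replicate 1, a choice made after the data were seen, the median of the 36 was -0.37, with no test.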
